A study of Homo sapiens with 8 samples.

Results

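The genes described here encode subunits of oxidative phosphorylation, the 61 in the nucleus beside the 13 in the mitochondrial genome, in 2 human acute myeloid leukaemia lines treated with a compound that the labels call dG. Members were chosen by name: NDUFA, NDUFB, NDUFC, NDUFS and NDUFV genes of complex I, SDHA to SDHD of complex II, UQCR genes of complex III, COX4 to COX8 genes of complex IV, and the mitochondrially encoded ND, CO, ATP and CYB genes. Of 131 names that matched, 51 had the form of a pseudogene and were left out, and 6 of the remaining 80 had a mean CPM (counts scaled to library size) below 1 over the 8 libraries. The other 74 of 57992 genes in the count table are the members, and all 74 passed the filter on low counts. Just inside the minimum lay NDUFV2 with a mean of 1.48 CPM, COX8C with 4.61 and NDUFA13 with 8.01. Just outside it lay NDUFA7 with 0.998 CPM, COX6B2 with 0.0308 and COX4I2 with 0.0235, and the other 3, COX6A2, COX7A1 and COX7B2, had no counts. Of the exon bases of NDUFA7, 33.5% overlap other genes, and the effect of this on its counts was not tested.

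There were 4 groups of 2 libraries: KG1A cells in PBS as vehicle, KG1A cells in 10 mM dG, U937 cells in PBS and U937 cells in 10 mM dG. All groups grew in RPMI 1640 medium with dialyzed bovine serum and antibiotics. The length of the treatment is not given in the sources used here. Nothing says that the 2 libraries of a group came from separate cultures, so the p-values here measure only how far these libraries spread, a spread that can be purely technical.

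The respiratory chain passes electrons from NADH through complex I, or from succinate through complex II, to ubiquinone, on through complex III and cytochrome c to complex IV and oxygen. Complexes I, III and IV pump protons as they do so, and ATP synthase uses the resulting gradient to make ATP. The mitochondrial genome encodes a few hydrophobic subunits of complexes I, III and IV and of ATP synthase, complex II is encoded by nuclear genes alone, and all other subunits are imported from the cytosol, so that the chain needs transcripts from both genomes. Some leukaemic cells are known to rely on oxidative phosphorylation to a large degree.

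Library totals ran from 21053724 to 31135338 counts. The members took a sizeable part of them: the 13 mitochondrial members held 5.62% to 7.58% of all counts in a library, and the 61 nuclear members 0.363% to 0.555%. CD34, the antigen of immature blood cells, lay at 930.7 CPM ± 0.954 (SD, n = 2) in KG1A in PBS and at 0.265 CPM ± 0.0198 (SD, n = 2) in U937 in PBS. Most other genes listed beside CD34 as markers for KG1A lay at about 1 CPM or less in KG1A in PBS. The primary granule protease gene ELANE had no counts in any KG1A library and lay between 100.6 and 113.0 CPM in U937, whereas MPO, another gene of these granules, stayed at or below 0.199 CPM in every library of both lines. Of 13 markers of lymphoid, erythroid, epithelial and fibroblast cells, 6 were at 0 in every library, MS4A1, HBB, HBA1, EPCAM and KRT19 among them. CD3E, a T cell receptor component, was the highest of the rest and lay between 10.5 and 21.8 CPM in KG1A, with no counts in U937. CD3E was higher in KG1A dG (21.4 CPM ± 0.596, SD, n = 2) than in PBS (10.7 CPM ± 0.371, SD, n = 2), and COL1A1, a fibroblast collagen, was higher in U937 dG (4.39 CPM) than in PBS (1.3 CPM). The part of these markers in the results below was not tested. In bulk RNA, fewer cells of a kind and less RNA per cell cannot be told apart.

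In KG1A, dG lowered most subunit genes by a small amount. Of the 61 nuclear members, 47 fell and 2 rose, while 19.6% of all 18314 genes tested were lower and 29.6% were higher. Their median log2 fold change was -0.23, beside 0.04 over all genes tested. Of the 13 mitochondrial members, 11 fell and 1 rose, with a median of -0.20. All of this is from edgeR's quasi-likelihood test with Benjamini-Hochberg adjustment over all genes tested and a threshold of 0.05. In 51 of the 61 nuclear genes both dG libraries lay below both PBS libraries. The share of all genes tested with that order of libraries was not counted, so this number has no background beside it.

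In U937 the nuclear members moved both ways. Of them, 25 fell and 15 rose, where 31.5% of all genes tested were lower and 32.4% were higher, and the median was -0.06 beside 0.00 over all genes. The share of nuclear members that rose (24.6%) or fell (41%) was thus nearer to the background than in KG1A. With DESeq2's size factors the nuclear median in U937 turned to 0.03, and without U937 dG replicate 2 it was 0.02 with 16 genes lower in place of 25. Of the mitochondrial members, 12 fell and 1 rose, with a median of -0.46 and single changes down to -1.46.

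The effect of dG differed between the lines for 38 of the 61 nuclear members: the U937 effect was the higher in 33 and the lower in 5. Over all genes tested, the difference was called higher in 17.6% and lower in 26.4%. The median difference was 0.24 for nuclear members, -0.29 for mitochondrial members and -0.10 over all genes. For the mitochondrial genes the U937 effect was the lower in 8 and the higher in 2. Without U937 dG replicate 2 the median difference was 0.37 for nuclear and -0.13 for mitochondrial members. DESeq2's size factors moved the median difference of all genes by 0.098 and the DESeq2 test by 0.11, and the share of positive differences among called genes went from 40% to 50.8% with those factors. The nuclear members with a higher U937 effect then numbered between 32 and 37 over the alternatives that kept all libraries.

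**Figure D1:**
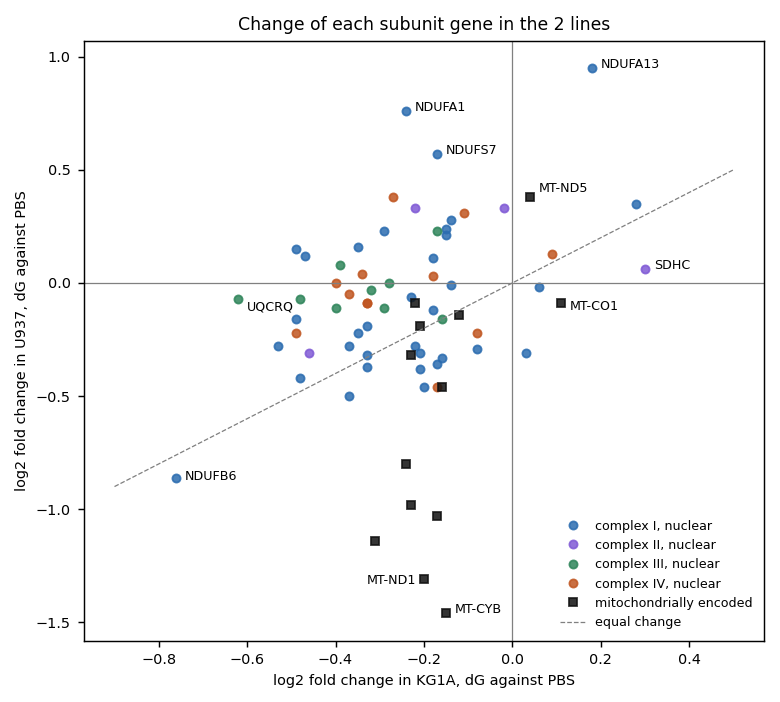
Log2 fold change of each member with dG in KG1A (x axis) against that in U937 (y axis), with 1 point per gene, coloured by complex for nuclear genes and as black squares for mitochondrially encoded genes; COX8C, which has at most 1 count per KG1A library, and 1 member of complex I are not drawn. Most circles lie left of 0 and above the dashed line of equal change, while the squares of MT-CYB (-1.46) and MT-ND1 (-1.31) lie far below it.

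Across the 61 nuclear members the changes in the lines had a Pearson r of 0.43 and a Spearman rho of 0.35, and over all 18314 genes tested 0.25 and 0.36. These values are across genes, which are not independent replicates, and the lines share no library, only the scaling of the table.

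Complex I is the entry point for electrons from NADH. Of its 35 nuclear members, 26 fell and 1 rose in KG1A, and 18 fell and 9 rose in U937. In KG1A 74.3% thus fell, against 19.6% of all genes tested. In U937 51.4% fell and 25.7% rose, against 31.5% and 32.4% of all genes tested. The 7 core subunits, which hold the flavin and the iron-sulphur clusters, did not move as a block. NDUFS1, the largest iron-sulphur subunit, fell in both lines. In KG1A it went from 174.4 and 173.4 CPM to 148.2 and 153.9 with dG. In U937 it went from 211.6 and 203.8 CPM to 146.5 and 154.8. The dG libraries were the lower ones in each line, with no overlap, and the log2 fold changes were -0.20 ± 0.04 in KG1A and -0.46 ± 0.04 in U937 (SE; adjusted p = 1.95e-05 and 1.85e-13). NDUFV1, which binds NADH and the flavin, and NDUFS3 fell in both lines too, by values between -0.21 and -0.31.

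NDUFS7, the core subunit with the cluster next to the quinone, moved in opposite directions. KG1A libraries had 21.8 and 24.1 CPM with PBS against 21.7 and 19.1 with dG. U937 libraries had 35.8 and 37 CPM with PBS against 54.3 and 53.7 with dG. The rise in U937 was clear of the spread, with a log2 fold change of 0.57 ± 0.06 (adjusted p = 1.13e-10), while the fall in KG1A of -0.17 ± 0.07 was near the threshold (adjusted p = 0.0486) and both calls stood together in 9 of 17 alternative analyses. An antisense gene, AC005329.1, covers 49.1% of the exon bases of NDUFS7 on the opposite strand, and the strand setting of the counting is not given. AC005329.1 itself lay between 0.479 and 2.31 CPM. Another core subunit, NDUFV2, had between 23 and 61 counts per library and was called in neither line. Of its exon bases, 28.4% overlap another gene on the same strand, AP005263.1, which has no counts. The rule for reads in shared bases is not given, and whether this overlap lowered the NDUFV2 counts was not tested.

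Among the 28 accessory subunits of complex I, 21 fell in KG1A while 7 were not called, and 15 fell and 7 rose in U937. The U937 shares were 53.6% lower and 25% higher, against 31.5% and 32.4% of all genes tested. NDUFB6, a small subunit of the membrane arm, had the largest fall of all nuclear members in both lines. It lay at 39.4 and 40.8 CPM in KG1A in PBS and at 25.3 and 21.9 in KG1A dG. In U937 it lay at 30.2 and 30.1 CPM in PBS and at 17.8 and 15.4 in dG. Every dG library was below every PBS library of either line, and the log2 fold changes were -0.76 ± 0.07 in KG1A (adjusted p = 5.16e-12) and -0.86 ± 0.08 in U937 (adjusted p = 2.59e-12). These falls of 41.1% and 44.9% did not differ beyond their error (adjusted p of the difference = 0.495). NDUFS6 (-0.53 in KG1A, -0.28 in U937), NDUFS5 (-0.49 and -0.16), NDUFB7 (-0.48 and -0.42) and NDUFB10 (-0.37 and -0.50) fell in both lines as well.

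NDUFA1, an accessory subunit of the membrane arm encoded on the X chromosome, had the largest difference between the lines among nuclear members. In KG1A it went from 66.8 and 68.2 CPM in PBS to 59.1 and 55.3 in dG. In U937 it went from 73.5 and 73.9 CPM in PBS to 126 and 124.3 in dG. The levels in PBS were close, and the dG libraries lay on opposite sides of them in the lines. The log2 fold changes were -0.24 ± 0.05 (adjusted p = 4.48e-05) and 0.76 ± 0.04 (adjusted p = 5.84e-18), which differ by 1.00 ± 0.06 (adjusted p = 7.93e-16). RNF113A, a gene on the opposite strand, overlaps 44.5% of the exon bases of NDUFA1. It rose in both lines, from 13.7 and 12.3 CPM to 15.8 and 16.4 in KG1A and from 43.9 and 42.6 to 63.1 and 61.2 in U937, and its part in the NDUFA1 counts was not tested.

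NDUFA13, also known as GRIM-19, had the largest rise of a nuclear member in U937, from 6.59 and 6.21 CPM to 11.5 and 13.4 (0.95 ± 0.11, adjusted p = 1.2e-09). In KG1A it lay at 6.15 and 6.39 CPM in PBS and at 7.32 and 6.86 in dG, a change of 0.18 ± 0.12 that did not pass the threshold (adjusted p = 0.238). Its counts were few for a subunit, and AC011448.1 overlaps 21% of its exon bases on the same strand. NDUFA3 fell in KG1A (-0.49 ± 0.08) and was at 0.15 ± 0.07 in U937, a difference of 0.64. NDUFV3 and NDUFB11 went the other way: they were at 0.03 and -0.08 in KG1A, without a call, and fell in U937 by values of -0.31 and -0.29. NDUFB11 shares 44.9% of its exon bases with RBM10 on the opposite strand, which fell too (-0.13 in KG1A and -0.59 in U937), and the part of RBM10 in the NDUFB11 counts was not tested.

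The promoters of 3 of these genes are printed to set the members that moved apart beside the one that fell alike. Each is the stretch from 120 bases before to 30 bases after the RefSeq start (GRCh38.p14), written 5′ to 3′ on the strand of the gene, and capitals mark any match to 3 short motifs known from promoters of respiratory genes: CCGGAAG, the core bound by ETS factors such as GABP, GCGCATGC, the core bound by NRF1, and AAGATGGCG, bound by YY1, each searched on both strands. NDUFA1 is at chrX:119871712-119871861 on the plus strand, NDUFS7 at chr19:1383787-1383936 on the plus strand and NDUFB6 at chr9:32573130-32573279 on the minus strand.
NDUFA1: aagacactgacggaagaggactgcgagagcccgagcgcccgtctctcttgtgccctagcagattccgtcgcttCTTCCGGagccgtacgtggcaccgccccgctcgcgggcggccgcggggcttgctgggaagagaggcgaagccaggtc
NDUFS7: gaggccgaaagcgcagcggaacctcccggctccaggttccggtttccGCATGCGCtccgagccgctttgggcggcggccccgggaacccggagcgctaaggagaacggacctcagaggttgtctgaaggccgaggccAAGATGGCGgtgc
NDUFB6: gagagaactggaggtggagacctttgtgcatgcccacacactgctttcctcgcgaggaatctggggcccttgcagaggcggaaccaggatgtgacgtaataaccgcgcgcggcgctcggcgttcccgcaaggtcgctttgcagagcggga
The ETS core of NDUFA1 lies on the minus strand and begins 47 bases before the start. NDUFS7 holds the NRF1 core, 73 bases before the start, and the YY1 core, 18 bases after it, and the NDUFB6 stretch holds none of the 3. Of the 61 nuclear members, 51 had an entry among the RefSeq promoters of 300 bases. The ETS core was in 15 of them (29.4%, against 10.3% of all 35116 promoters of that length), the NRF1 core in 9 (17.6% against 3.05%) and the YY1 core in 6 (11.8% against 1.75%). The 15 members with the ETS core had median changes of -0.24 in KG1A and -0.05 in U937, and the 28 with none of the 3 had -0.30 and -0.07. The 9 members with the NRF1 core had medians of -0.22 and -0.12, and the 6 with the YY1 core -0.17 and -0.11. The groups of members by motif share members and were not tested against each other. A match is a run of letters only, and factor binding was not measured.

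Complex II, the succinate dehydrogenase that also serves the citric acid cycle, is the only complex with all its subunits in the nucleus, and its 4 genes each took a different course. SDHA, the flavoprotein, lay at 84.9 and 85.2 CPM in KG1A in PBS and at 86 and 81.9 in dG, which overlap. In U937 it rose from 107 and 114.2 CPM to 138 and 140.5 (0.33 ± 0.04, adjusted p = 5.16e-09). SDHB, the iron-sulphur subunit, fell in both lines, from 58 and 57 CPM to 42.1 and 41.6 in KG1A (-0.46 ± 0.05, adjusted p = 4.16e-10) and from 163.4 and 164.2 to 134.9 and 128.8 in U937 (-0.31 ± 0.04, adjusted p = 6.03e-09).

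The anchor subunits, which hold the enzyme in the membrane and form the quinone site with SDHB, split by line. SDHC rose in KG1A, from 42.2 and 41.7 CPM to 52.3 and 50.7 (0.30 ± 0.06, adjusted p = 3.51e-05), and lay at 62.6, 59.5, 59.4 and 68.2 CPM in U937, where PBS and dG overlap. SDHD fell in KG1A, from 133.4 and 128.5 CPM to 110.1 and 114.5 (-0.22 ± 0.04), and rose in U937, from 66.6 and 68.6 to 86.6 and 82.8 (0.33 ± 0.05). The difference of 0.55 ± 0.06 for SDHD was called (adjusted p = 1.26e-09). In PBS the lines also began from unlike levels: SDHB was higher in U937 by 1.51 ± 0.04 on the log2 scale and SDHD was lower by a log2 fold change of -0.95 ± 0.04.

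Complex III, which hands electrons from ubiquinol to cytochrome c, had all 9 of its members lower in KG1A, with a median of -0.32 and a range from -0.62 to -0.16. The DESeq2 test called 8 of the 9, as did leaving out either KG1A PBS library or KG1A dG replicate 1. In U937, 2 of the 9 fell, 1 rose and 6 were not called, and in 8 of the 9 the U937 effect was called higher than the KG1A effect. The U937 shares of 22.2% lower and 11.1% higher were below those of all genes tested, 31.5% and 32.4%. Over all genes tested, 19.6% were lower in KG1A and the difference was called higher in 17.6%.

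UQCRQ, a small subunit beside cytochrome b, fell from 21.4 and 23.6 CPM to 15.1 and 14.2 in KG1A (-0.62 ± 0.08, adjusted p = 1.55e-08). In U937 it lay at 23.1 and 23.1 CPM in PBS and at 22.7 and 21.2 in dG (-0.07 ± 0.07, adjusted p = 0.424). GDF9 covers 20.8% of its exon bases on the opposite strand, at no more than 1.03 CPM. UQCRFS1, the Rieske iron-sulphur protein, had the same pattern, with 94.3 and 95 CPM against 70 and 66 in KG1A (-0.48 ± 0.04) and 98.5 and 95 against 94.6 and 89.2 in U937 (-0.07 ± 0.04). UQCRC2, a core protein, had the highest RPKM (reads scaled to exon length and library size) of the nuclear members of the complex, 66.6 on average. That length takes in every annotated exon base, 9715 for UQCRB and 5217 for UQCRC2, so the rank depends on the annotation. UQCRC2 fell in KG1A from 217 and 216.4 to 196.4 and 189 CPM. In U937 it rose from 444.5 and 453.1 to 527.1 and 523 CPM, so that the dG libraries of the lines lay on opposite sides of PBS. UQCRH, the hinge protein, and UQCRHL are near-identical copies whose reads cannot be told apart with certainty. UQCRHL held 0.488 to 0.588 counts for each count of UQCRH in every library, and both are uncertain.

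Complex IV, cytochrome c oxidase, reduces oxygen. Of its 13 nuclear members 10 fell and none rose in KG1A, and 4 fell and 3 rose in U937. In U937 these are 30.8% and 23.1% of the members, against 31.5% and 32.4% of all genes tested, so the share that fell was at the background, while in KG1A 76.9% fell against 19.6%. COX7B had the largest fall in KG1A, from 125.7 and 128.1 CPM to 92.3 and 89 (-0.49 ± 0.04, adjusted p = 1.72e-12). In U937 it fell less, from 234.2 and 246.6 to 211 and 200 CPM (-0.22 ± 0.04, adjusted p = 1.8e-06). COX5A, a subunit on the matrix side, fell more in U937 (from 176.1 and 186.2 to 132.8 and 131.1 CPM, -0.46 ± 0.04) than in KG1A (from 101.8 and 107.6 to 93.5 and 93.3 CPM, -0.17 ± 0.04), with a called difference of -0.29. NDUFA4, first assigned to complex I and now placed in complex IV, fell in KG1A from 80.9 and 86.1 to 65.3 and 61.2 CPM and lay between 77.4 and 82.1 CPM in all U937 libraries.

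Several complex IV subunits exist as tissue or paralogue forms. COX4I1, COX6A1, COX6B1 and COX7A2 were present, while their counterparts COX4I2, COX6A2, COX6B2 and COX7A1 were at or near 0. COX7A2 fell in KG1A from 71.5 and 71.3 to 62 and 56.7 CPM (-0.27 ± 0.05, adjusted p = 3.5e-05) and rose in U937 from 67.4 and 69.3 to 93.4 and 84.4 CPM (0.38 ± 0.05, adjusted p = 1.63e-08). COX7A2L, which helps complexes III and IV join into supercomplexes, was at -0.11 in KG1A and 0.31 in U937. The COX8 forms differed by line. COX8A, the common form, lay between 73.3 and 84.7 CPM in KG1A and between 51.6 and 58.1 in U937, whereas COX8C had 1, 0, 1 and 0 counts in KG1A and 279, 205, 252 and 187 in U937. COX8C in U937 was not called with dG (adjusted p = 0.0727).

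**Figure D2:**
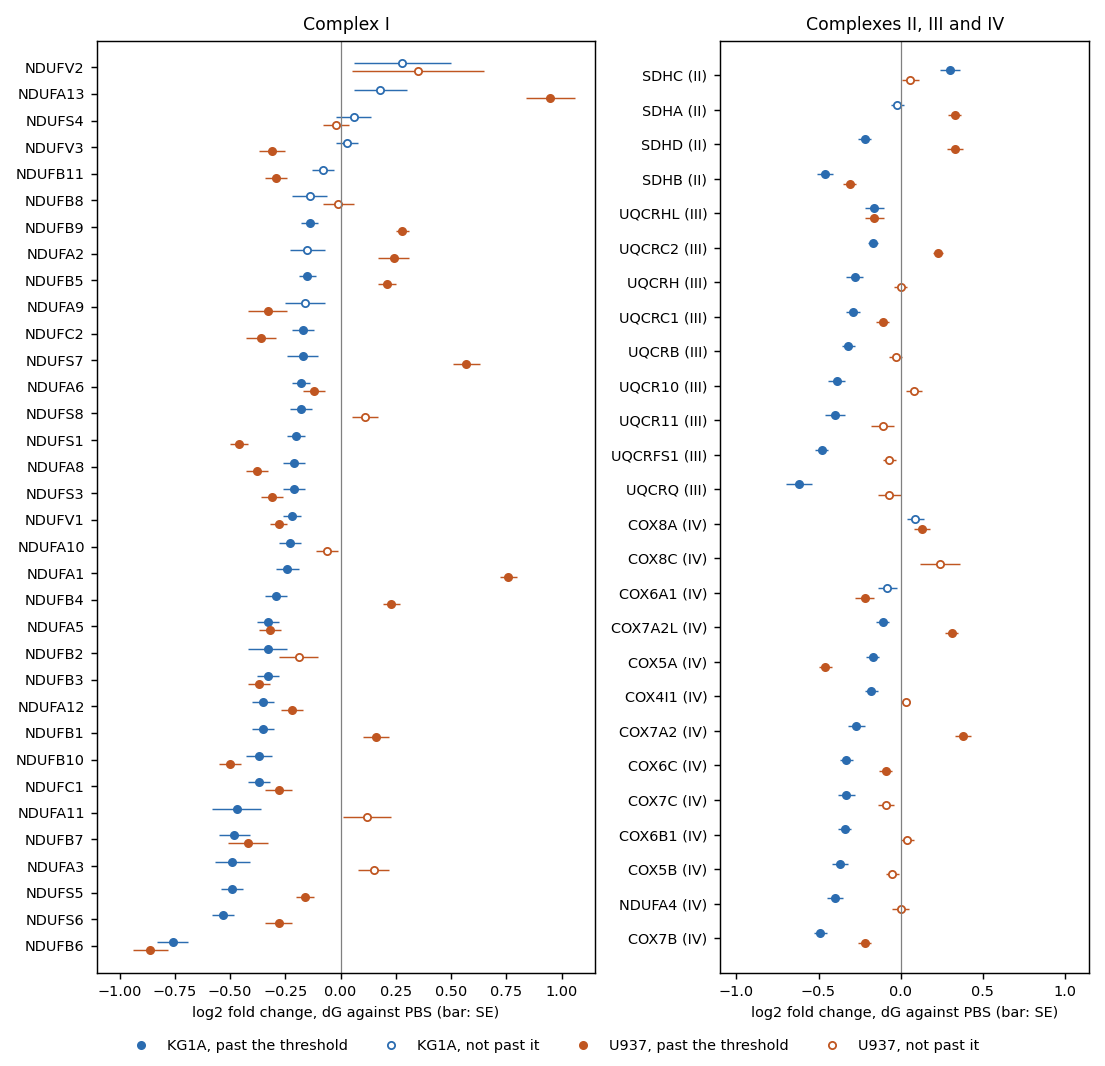
Log2 fold change of each nuclear member, dG against PBS, in KG1A (blue) and U937 (orange), with standard errors as bars, filled circles for genes past the threshold and open circles for the others, 2 libraries per group. Complex III genes lie left of 0 in KG1A and near 0 in U937, and NDUFB6 is far left in both lines. COX8C is not drawn for KG1A, where it has at most 1 count per library, and 1 member of complex I is not drawn.

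A group of 10 nuclear members fell in KG1A and rose in U937: NDUFA1, NDUFB1, NDUFB4, NDUFB5, NDUFB9 and NDUFS7 of complex I, SDHD, UQCRC2, COX7A2 and COX7A2L. They come from all 4 complexes. The difference between the lines was called for all 10, which opposite calls in the same libraries nearly imply, so it adds no support. Of all genes tested, 2.51% had this pair of calls, against 16.4% of the nuclear members. Both calls stood in all 17 alternative analyses for NDUFA1, NDUFB4, NDUFB5, SDHD, UQCRC2 and COX7A2. They stood in 16 for NDUFB9, 15 for NDUFB1, 11 for COX7A2L and 9 for NDUFS7. Another 21 fell in both lines and 16 fell in KG1A without a call in U937. For 15 of those 16 the difference between the lines was called, but they too were picked by calls in the same libraries. The share with a called difference among all genes with the same pair of calls was not counted. Over all genes tested, 13.1% were lower in both lines and 3.96% were lower in KG1A without a call in U937.

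The mitochondrial genome is copied into long transcripts from each strand, which are then cut into single mRNAs, so its 13 protein genes share their transcription to a large degree. ND1 to ND6 and ND4L belong to complex I, CYB is the catalytic centre of complex III, CO1 to CO3 form that of complex IV, and ATP6 and ATP8 belong to the ATP synthase. In U937 they did not fall evenly. MT-CYB lay at 3493.5 and 3562.5 CPM in PBS and at 1308.5 and 1253.3 in dG. MT-ND1 lay at 3230 and 3210 CPM in PBS and at 1310 and 1289 in dG. MT-ND2 went from 3508.0 and 3553.6 to 1620.9 and 1578.5 CPM. The dG libraries of these 3 genes lay far below PBS, with log2 fold changes of -1.46 ± 0.03, -1.31 ± 0.03 and -1.14 ± 0.03 (adjusted p = 6.43e-32, 8.44e-31 and 8.78e-29).

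MT-ND6, the only protein gene on the light strand, went from 125.1 and 104.4 to 55.1 and 57.4 CPM in U937 (-1.03 ± 0.06). It was the least abundant of the 13, and its mRNA is known to lack the poly(A) tail that the other mitochondrial mRNAs carry. MT-ATP8 and MT-ATP6 fell by values of -0.98 ± 0.03 and -0.80 ± 0.03, MT-ND3 of -0.46 and MT-CO3 of -0.32. At the other end, MT-CO1 lay at 11796.7 and 11657.3 CPM in PBS and at 11319.0 and 10791.5 in dG, and MT-ND4 at 20724.5 and 20720.3 in PBS and 19737.8 and 19089.8 in dG. Those small falls of -0.09 each passed the threshold (adjusted p = 0.00446 and 0.0024) but depended on the scaling: with DESeq2's size factors they were 0.01 and -0.00392, and without U937 dG replicate 2 they were 0.01 and -0.01. MT-ND5 rose from 4790.5 and 4913.8 to 6344.7 and 6270.5 CPM (0.38 ± 0.03, adjusted p = 3.1e-14), and was higher in all alternatives.

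In KG1A the 13 genes kept together, between -0.31 for MT-ND2 and 0.11 for MT-CO1. MT-CYB lay at 7909 and 8042 CPM in PBS and at 7079 and 7316 in dG (-0.15 ± 0.03), and MT-ND1 at 5292 and 5345 in PBS and 4542 and 4723 in dG (-0.20 ± 0.03). MT-CO1, with 10894.2 and 10908.7 CPM in PBS and 11743.6 and 11816.5 in dG, was the gene that rose (adjusted p = 0.000415). With library size alone as scaling its change was 0.05 and no longer called, and without either U937 dG library, which enters the shared scaling and spread, it was 0.05 and not called either. MT-ND5 overlapped between PBS and dG (adjusted p = 0.328). The difference between the lines was largest for MT-CYB (-1.31 ± 0.04), MT-ND1 (-1.11 ± 0.04), MT-ND6 (-0.87 ± 0.08), MT-ND2 (-0.83 ± 0.04), MT-ATP8 (-0.76 ± 0.05) and MT-ATP6 (-0.56 ± 0.04), and was not called for MT-CO2, MT-CO3 and MT-ND4L.

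**Figure D3:**
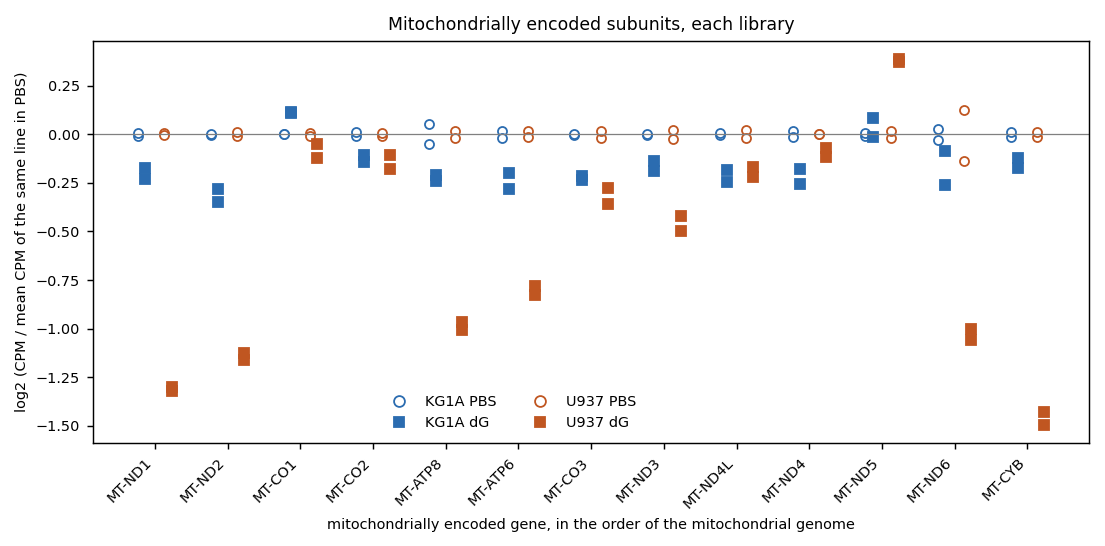
Log2 of the CPM of each mitochondrially encoded gene in each library over the mean CPM of the same line in PBS, with genes in the order of the mitochondrial genome, open circles for PBS and filled squares for dG, KG1A in blue and U937 in orange. The U937 dG squares run from -1.49 for MT-CYB to 0.39 for MT-ND5, while the KG1A dG squares stay within a narrow band below 0 except at MT-CO1 and MT-ND5.

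Ratios within a library do not depend on the scaling between libraries. Per length, MT-CYB stood to MT-CO1 as 0.4 and 0.413 in U937 in PBS and as 0.156 and 0.157 in dG. In KG1A the ratio was 0.981 and 0.996 in PBS and 0.815 and 0.837 in dG. MT-ND5 to MT-CYB went from 0.864 and 0.868 to 3.05 and 3.15 in U937, and from 0.382 and 0.381 to 0.425 and 0.441 in KG1A. MT-ND1 to MT-ND4 went from 0.225 and 0.223 to 0.0957 and 0.0973 in U937 and lay between 0.508 and 0.526 in all KG1A libraries. The dG and PBS libraries of U937 were thus apart in each of these ratios, and those of KG1A overlapped in the last. The 2 ribosomal RNAs of the mitochondrial genome took 2.6% ± 0.0051 of the counts in U937 in PBS and 2.35% ± 0.0606 in dG, and 1.59% ± 0.00974 and 1.58% ± 0.0392 in KG1A (SD, n = 2 each).

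Some neighbours on the mitochondrial genome are translated from 1 shared mRNA, and their reading frames overlap. The junctions are printed because they bound what the counts can separate. Both come from the plus strand of GRCh38, as annotated in GENCODE 29, with the shared bases in capitals, for chrM:8515-8584 (MT-ATP8 into MT-ATP6) and chrM:10748-10778 (MT-ND4L into MT-ND4).
MT-ATP8/MT-ATP6: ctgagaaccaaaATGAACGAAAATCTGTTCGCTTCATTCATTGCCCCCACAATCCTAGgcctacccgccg
MT-ND4L/MT-ND4: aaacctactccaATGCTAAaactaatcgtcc
The first pair shares 46 bases, 22.2% of MT-ATP8, and the second shares 7. The changes in U937 were -0.98 and -0.80 for MT-ATP8 and MT-ATP6, and -0.19 and -0.09 for MT-ND4L and MT-ND4. Between the pairs on the genome lie MT-CO3 (-0.32) and MT-ND3 (-0.46). MT-ATP8 over MT-ATP6 was 0.177 and 0.176 counts in U937 in PBS and 0.155 and 0.157 in dG. MT-ND4L over MT-ND4 went from 0.0772 and 0.0751 to 0.0711 and 0.0710 there, so in each pair the dG libraries lay below PBS without overlap.

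Nuclear copies of mitochondrial genes can take up reads of the originals. Of 392 such names, 13 passed the filter. All 392 together summed to 2506 CPM ± 27.9 in KG1A in PBS and 534 CPM ± 28.8 in U937 in PBS (SD, n = 2). Of the 13 that passed, 4 fell and 1 rose in KG1A, and 3 fell, 2 rose and 8 were not called in U937. The KG1A shares were 30.8% lower and 7.69% higher, against 19.6% and 29.6% of all genes tested. The U937 shares were 23.1% and 15.4%, against 31.5% and 32.4%. Those that fell in U937 were MTND2P28 (-1.21 ± 0.05, beside -1.14 for MT-ND2), MTATP6P1 (-0.82 ± 0.04, beside -0.80 for MT-ATP6) and MTCO3P12 (-0.47 ± 0.17, beside -0.32 for MT-CO3). Those that rose there were MTND4P12 (0.16 ± 0.05, beside -0.09 for MT-ND4) and MTCO1P22, beside -0.09 for MT-CO1. MTCO1P22 had 0 and 0 counts in PBS and 3 and 2 in dG, too few for a fold. The falls of MT-ND4 and MT-CO1 depended on the scaling, as given above. MTCO1P12 in KG1A rose by 0.19 ± 0.03, as MT-CO1 did. MTCO1P12 lay between 800.2 and 966.7 CPM in KG1A and between 23.3 and 27.7 in U937. Whether reads assigned to the copies came from them was not tested.

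In PBS the lines differed in most members, as they did in most of all genes tested. Of the nuclear members, 33 (54.1%) were higher in U937 than in KG1A, against 41.4% of all genes tested. Another 19 (31.1%) were lower, against 40.8%. Among the largest were SDHB (1.51), UQCRC1 (1.5), and COX5B (1.41) toward U937, and NDUFS8 (-1.29), NDUFC2 (-1.11) and NDUFB1 (-1.07) toward KG1A. COX8C, present in U937 alone, is set aside here. Of the mitochondrial members 4 (30.8%) were higher and 8 (61.5%) lower in U937. MT-CYB (-1.18 ± 0.03), MT-ND3 (-1.06 ± 0.03) and MT-ND1 (-0.72 ± 0.03) were lower and MT-ND4 (0.48 ± 0.03) was higher. Per length, MT-CO3 was the highest member in KG1A in PBS, at 12518 RPKM ± 60.5, above MT-ND4 at 10972 RPKM ± 134 (SD, n = 2). In U937 in PBS MT-ND4 was the highest, at 14821 RPKM ± 149, above MT-CO3 at 12747 RPKM ± 103 (SD, n = 2). Over all libraries the highest nuclear member of complex I per length was NDUFS5, with 160.5 RPKM on average, a rank that also depends on the annotated exon lengths. The 13 mitochondrial members together gave 16.6 ± 0.147 counts for each nuclear count in KG1A in PBS and 17.9 ± 0.74 in dG, and 13.1 ± 0.145 and 11 ± 0.0911 in U937 (SD, n = 2 each).

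Genes that work with the members were described from lists, counted in the same fit. For comparison, 19.6% of all genes tested were lower and 29.6% higher in KG1A, and 31.5% and 32.4% in U937. Of the respiratory genes that the naming rule leaves out, NDUFAB1, the acyl carrier protein of complex I, CYCS, cytochrome c, and CYC1, cytochrome c1 of complex III, fell in both lines. Their changes were -0.73, -0.63 and -0.49 in KG1A and -0.42, -0.25 and -0.23 in U937. Of 17 nuclear ATP synthase genes, 14 fell and none rose in KG1A and 12 fell and 1 rose in U937 (medians -0.33 and -0.29). ATP5G1 (ATP5MC1), a gene of the proton-carrying c ring, fell from 42.3 and 46.4 to 26.5 and 23.8 CPM in KG1A (-0.82 ± 0.07) and from 29.6 and 30.3 to 21.6 and 17.1 in U937 (-0.62 ± 0.08). ATP5S (DMAC2L) parted the lines, at 0.12 ± 0.06 in KG1A without a call and -1.38 ± 0.09 in U937.

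Assembly factors of complex I fell almost throughout: 15 of 18 fell and 1 rose in KG1A, and 17 fell and 1 rose in U937, with medians of -0.25 and -0.41. NUBPL, which delivers iron-sulphur clusters to complex I, went from 13.8 and 15.1 to 4.22 and 4.12 CPM in U937 (-1.79 ± 0.11) and from 15.8 and 16.3 to 9.84 and 9.92 in KG1A (-0.70 ± 0.09), and the difference was called. NDUFAF4 fell by values of -0.75 in KG1A and -1.26 in U937, and ECSIT by -0.85 and -0.96. Of 20 complex IV assembly factors, 11 fell and 1 rose in KG1A and 12 fell and 4 rose in U937. COA4 had the largest fall of that list, at -0.73 and -1.25. Of 10 factors of complexes II and III, 4 fell and 2 rose in KG1A and 5 fell and 1 rose in U937. The KG1A shares were 40% and 20%, against 19.6% and 29.6% of all genes tested. The U937 shares were 50% and 10%, against 31.5% and 32.4%. BCS1L, which inserts the Rieske protein UQCRFS1 into complex III, fell by -0.41 in KG1A and -0.87 in U937, with a called difference of -0.46, while that of UQCRFS1 was 0.40.

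For the copying of the mitochondrial genome and its nucleotide supply, 13 genes were listed. In KG1A 5 fell and 4 rose, in U937 7 fell and 3 rose, with medians of -0.01 and -0.19. The share that rose in KG1A (30.8%) was near that of all genes tested (29.6%), while 38.5% fell against 19.6%. In U937 53.8% fell and 23.1% rose, against 31.5% and 32.4%. C10orf2 (TWNK), the helicase of mitochondrial DNA replication, stood out by size in U937: it lay at 28.8 and 27.3 CPM in PBS and at 4.78 and 5.19 in dG (-2.50 ± 0.10, adjusted p = 6.85e-23). In KG1A it went from 37.1 and 34.4 to 25.8 and 27.7 CPM (-0.42 ± 0.06). SSBP1, the single-strand binding protein, fell by values of -0.63 and -0.94. TOP1MT, the mitochondrial topoisomerase, moved in opposite directions, 0.67 ± 0.08 in KG1A and -0.68 ± 0.05 in U937. TK2, which phosphorylates pyrimidine deoxynucleosides in mitochondria, rose in both lines (0.52 and 0.84), and DGUOK, which does so for purine deoxynucleosides, fell in KG1A (-0.39) and was at 0.09 in U937 without a call.

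Of 25 genes for transcription of the mitochondrial genome and handling of its RNA, 18 fell and none rose in KG1A, and 22 fell and 1 rose in U937 (medians -0.38 and -0.58). TFAM, which packages the genome and starts transcription, went from 162.1 and 158.4 to 117.1 and 124.9 CPM in KG1A (-0.41) and from 121.9 and 119.3 to 76.9 and 78.7 in U937 (-0.63). POLRMT, the RNA polymerase, was at -0.39 and -0.21. TRMT10C and ELAC2 take part in cutting transfer RNAs out of the long transcripts. Both fell more in U937 (-1.15 and -1.07) than in KG1A (-0.46 and -0.45), each with a called difference. The same held for LRPPRC, which stabilises mitochondrial mRNAs and went from 697.1 and 704.5 to 400.5 and 403.6 CPM in U937 (-0.80 ± 0.03) and from 520.1 and 508.4 to 431.8 and 427.3 in KG1A (-0.26 ± 0.03). PNPT1, a mitochondrial RNA-degrading enzyme, was at -0.57 and -1.14. In these lists the genes named for a role and not for a large change, such as TFAM, POLRMT, LRPPRC, TK2 and DGUOK, were chosen after their values were seen.

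Among 12 tested regulators of respiratory genes, 5 fell and 2 rose in KG1A and 7 fell and 3 rose in U937. The KG1A shares were 41.7% and 16.7%, against 19.6% and 29.6% of all genes tested. The U937 shares were 58.3% and 25%, against 31.5% and 32.4%. MYC, which drives many mitochondrial genes, went from 227.9 and 226.4 to 20.8 and 19.1 CPM in U937 (-3.51 ± 0.05) and from 517.8 and 512.8 to 415.7 and 402.2 in KG1A (-0.33 ± 0.03). PPRC1, a coactivator of the PGC-1 family, fell by -0.31 and -0.86, and NRF1 fell in U937 (-0.59) and was at 0.13 in KG1A without a call. TFEB, a regulator of lysosomal genes, rose in U937 from 160.6 and 163.5 to 348.2 and 340.4 CPM, and its KG1A levels were at most 0.213 CPM. Of 13 citric acid cycle enzymes, 9 fell and 1 rose in KG1A and 10 fell and 1 rose in U937. FH, fumarate hydratase, which acts on the product of complex II, fell by -0.64 and -0.77, and MDH2 by -0.47 and -0.32.

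**Figure D4:**
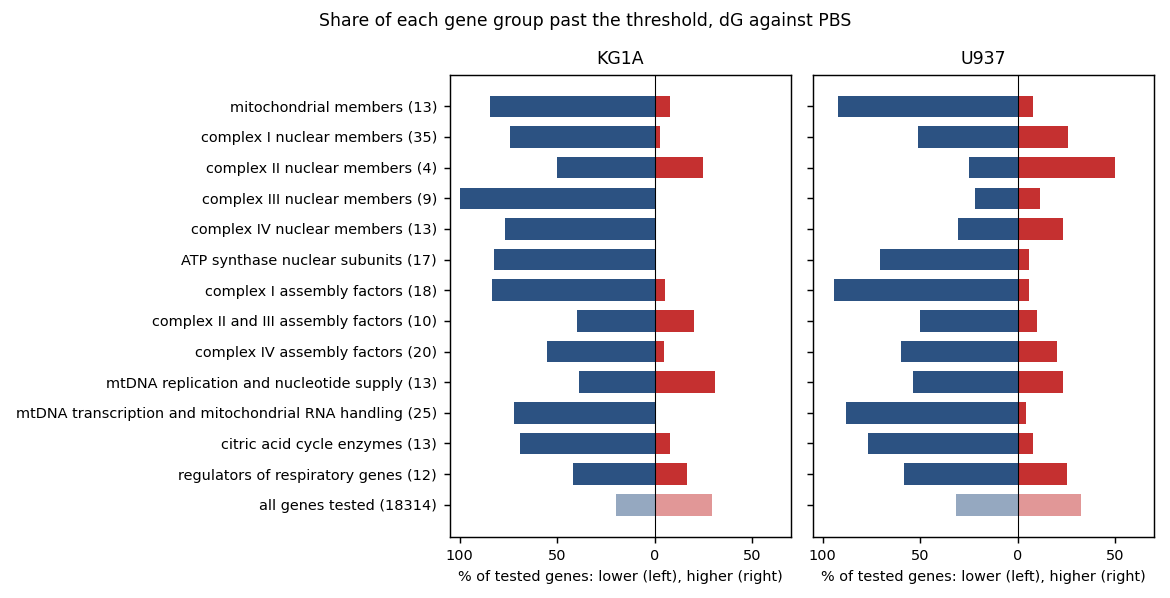
Percent of the tested genes of each group that were lower (blue, left) and higher (red, right) with dG against PBS in KG1A and in U937, with the number of genes in brackets and all 18314 genes tested in pale bars at the bottom. Nuclear members of complex III are all lower in KG1A (9 of 9) and mostly uncalled in U937, while complex I assembly factors and the genes for mitochondrial RNA are mostly lower in both lines.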

How the data were processed

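RNA from 8 samples was measured by poly(A)-selected RNA-seq (Kapa mRNA HyperPrep, per the labels). The authors deposited whole-number counts per gene and, beside them, RPKM values per gene. For genes above a minimum count, the library size implied by each RPKM value was computed from its count and exon length. Within a library these sizes deviated from their median by a relative 3.8e-07 at most. The medians were 93.79% to 105.1% of the column totals. Because they come from the RPKM values themselves, this shows only that each library was scaled by 1 constant. The submitters' processing notes name bcl2fastq 2.18.0.12, TopHat2, HTSeq 0.11.2 and the build hg38. Which annotation was counted, whether strand was used and how multi-mapping reads were handled are not given in the sources used here. Of the members, 72 of 74 have the coordinates of GENCODE 29.

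Counts were tested with edgeR 4.0.16 (R 4.3.3): filterByExpr kept 18314 genes, TMM scaling, 1 quasi-likelihood fit over all 4 groups with 4 residual degrees of freedom and a common biological coefficient of variation of 2.51%, 2-sided F tests and Benjamini-Hochberg adjustment at 0.05 over all genes tested. CPM are on the TMM scale except for the members' minimum of 1, which used column totals (TMM-scaled CPM would give 75 members). Replicates of a group differed by 1.8 to 2.21 chi-square units per gene. Alternatives were DESeq2 1.42.0 (size factors, test), library size alone, scaling from nuclear genes, no filter, limma 3.58.1 on log2(RPKM + 1) and log2(RPKM + 0.1), each line fitted alone, a replicate block, and leaving out each library. Scripts were tested on simulated data. The members and lists were chosen with earlier results of these data known. The text names members by the size of the change in each comparison, the difference between lines and the level, and others for their role. The list symbols ATP5MPL, ATP5MD and FASTKD4 were not matched. Promoters are from RefSeq (GRCh38.p14), mitochondrial junctions from GRCh38. Values of 1 complex I member and of some marker genes are not reported here.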

Additional observations from a re-analysis of the deposited data

Results flagged for a closer look

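For these results the effect of dG differed between the lines by a test of the difference itself (edgeR, adjusted over all genes tested). The difference was called for 33 nuclear members with the U937 effect higher and 5 with it lower, and for 2 mitochondrial members with it higher and 8 with it lower. Over all genes tested it was called higher in 17.6% and lower in 26.4%. As log2 differences of the effects, U937 minus KG1A, the nuclear members with the largest positive values were NDUFA1 (1.00), NDUFA13 (0.77), NDUFS7 (0.74), COX7A2 (0.65) and NDUFA3 (0.64). The 5 negative ones were NDUFV3 (-0.34), COX5A (-0.29), NDUFS1 (-0.26), SDHC (-0.24) and NDUFB11 (-0.21). Among mitochondrial members the values were -1.31 for MT-CYB, -1.11 for MT-ND1, -0.87 for MT-ND6, -0.83 for MT-ND2, -0.76 for MT-ATP8, -0.56 for MT-ATP6, -0.29 for MT-ND3 and -0.20 for MT-CO1. They were positive for MT-ND5 (0.34) and MT-ND4 (0.12). No group had enough libraries to look for a single library far from the others.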

How the results depend on the processing

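Counts over the members that are not named here stayed within 1.5 times. The median difference between lines was 0.19 to 0.37 for nuclear members (0.34 with DESeq2, 0.36 with no filter) and -0.32 to -0.13 for mitochondrial members (-0.19 with DESeq2, -0.17 with no filter and RPKM, -0.21 and -0.13 without U937 dG replicate 1 and 2). The nuclear median in PBS (0.13) ran from 0.08 with RPKM to 0.19 without U937 PBS replicate 1. The other medians were, over all alternatives, -0.30 to -0.23 (nuclear) and -0.27 to -0.18 (mitochondrial) in KG1A, -0.53 to -0.36 (mitochondrial) in U937 and -0.42 to -0.33 (mitochondrial) in PBS. In KG1A, nuclear members higher went from 2 to 1 with RPKM (either pseudocount), and mitochondrial members higher from 1 to 0 with library size alone, no filter and RPKM (0 to 2 over left-out libraries). In U937, nuclear members lower numbered 16 to 26 over left-out libraries, with 16 without U937 dG replicate 2, and mitochondrial members lower went from 12 to 7 with RPKM and a pseudocount of 1. For the difference between lines, nuclear members lower went from 5 to 3 with DESeq2 size factors, 2 with the DESeq2 test and RPKM and 1 with no filter (2 to 6 over left-out libraries), and mitochondrial members higher from 2 to 4 with no filter and 1 with RPKM (1 to 4). In PBS, mitochondrial members higher in U937 went from 4 to 2 with RPKM. The U937 nuclear median (-0.06) was -0.13 with library size alone, 0.03 with DESeq2 size factors and test, 0.0048 with no filter, 0.0029 and 0.00335 with RPKM. Small values changed sign. With library size alone these were, in U937, COX4I1 (-0.04), COX6B1 (-0.03), NDUFA4 (-0.07) and SDHC (-0.02), and in KG1A MT-ND5 (-0.03) and NDUFV3 (-0.03). MT-ND5 in KG1A was also -0.03 with no filter and RPKM and -0.02 fitted alone, and NDUFV3 -0.04 with no filter and -0.03 with RPKM and fitted alone. NDUFA4 in U937 was -0.000396 with nuclear scaling and -0.01 fitted alone. With DESeq2 size factors and test, in U937, MT-CO1 was 0.01, UQCRFS1 0.02, UQCRQ 0.02 and UQCRH 0.09 (0.06 with no filter and RPKM). The difference of MT-CO2 was 0.08 and that of MT-CO3 0.01 with DESeq2, and 0.11 and 0.04 with no filter and RPKM. Over left-out libraries, values that changed sign ran in U937 from -0.01 to 0.16 for COX6B1, -0.11 to 0.01 for MT-CO1, -0.04 to 0.11 for NDUFA4, -0.11 to 0.03 for UQCRFS1, -0.05 to 0.07 for UQCRH, -0.09 to 0.04 for UQCRQ and -0.07 to 0.02 for the nuclear median. In KG1A they ran from -0.03 to 0.09 for MT-ND5, -0.04 to 0.07 for NDUFV3, -0.09 to 0.02 for SDHA and -2.29 to 2.31 for COX8C, which has at most 1 count there. The difference ran from -0.04 to 0.15 for MT-CO2, -0.11 to 0.08 for MT-CO3 and -0.01 to 0.18 for MT-ND4L. The cause was not tested. The share of positive differences among called genes went from 40% to 51.6% with the DESeq2 test, 53.9% with no filter and 55.6% with RPKM, and 54% and 54.4% without U937 dG replicate 1 and 2; in KG1A the share higher went from 60.2% to 50.8% with library size alone, and in U937 from 50.7% to 57.7% with DESeq2 size factors. Same-numbered libraries did not deviate together (correlations -0.0501 in KG1A and 0.00799 in U937). The labels do not say whether they share more than a number. With a replicate block, KG1A had 2 nuclear members higher and 45 lower, U937 15 and 25, and the difference 33 and 5.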
